A study of Danio rerio with 17 samples.

Results

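The genes btg1 and ing3 were followed through the livers of male and female zebrafish fed a diet with 0% or 25% carbohydrate. All probe sets that the platform annotation assigns to btg1 or ing3 alone were taken. This gave 1 probe set for btg1 (Entrez gene 114432) and 1 for ing3 (Entrez gene 393911), 2 of the 15502 probe sets tested and 2 of 8793 gene symbols. Both genes were chosen by their signal on the 2 diets, which was lower on carbohydrate in these same fish. Their diet differences are therefore given as a description without a test, and only what that choice did not use is tested. Liver total RNA of each fish was hybridised to 1 Affymetrix zebrafish array, 17 arrays in all. The sample labels put 5 females and 4 males on the carbohydrate-free diet and 5 females and 3 males on the diet with carbohydrate. The design text states 3 males on 0% and 4 on 25% instead; the labels were used here. Strain, age, feeding time and the rest of the diet are not given in the sources used here.

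The BTG and TOB proteins restrain cell proliferation in vertebrates. BTG1 is known from mammals to bind the catalytic subunits CNOT7 and CNOT8 of the CCR4-NOT complex, which shortens the poly(A) tails of messenger RNAs, and to bind the arginine methyltransferase PRMT1. The ING proteins carry a PHD finger that reads methylated histone tails, and ING3 is known from human cells as a subunit of the NuA4/TIP60 complex, which acetylates histones and exchanges histone variants. In the RefSeq annotation of assembly GRCz12tu the genes lie on the same chromosome but are not neighbours, with 136 protein-coding genes between them.

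Values are deposited signals on a log2 scale, whose base was inferred from their range, so a difference of 1 is a doubling of signal. Array medians lay between 3.51 and 3.60. Both members were above the array median in every fish. The btg1 signal stood at the 95.1st to the 97.7th percentile of its array and the ing3 signal at the 80.2nd to the 90.3rd. Hepatocyte markers were high in every sample, with all 16 measured genes of that list above the array median and list means of 11.35 to 11.96. Male fish 11, 66 and 52 stood apart from the other arrays. Their intestinal epithelium markers averaged 7.85, 7.31 and 7.94, against at most 4.74 in every other fish. The male diet differences of btg1 and ing3, their sex differences and the list counts that changed are therefore also given without these 3 fish, which leaves 2 males on each diet.

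The btg1 signal was lower in the fish fed 25% carbohydrate, in both sexes. In females on 0% it was 9.38, 9.26, 9.26, 8.97 and 9.42 in fish 7, 8, 10, 25 and 27. In females on 25% it was 8.84, 8.54, 8.56, 8.85 and 8.30 in fish 3, 20, 24, 49 and 51. All 5 females on 25% lay below all 5 on 0%, by a narrow margin: the highest fish on 25% stood 0.12 below the lowest on 0%. In males on 0% the signal was 9.57, 9.37, 9.04 and 9.14 in fish 11, 26, 30 and 66. In males on 25% it was 8.50, 8.17 and 8.22 in fish 52, 53 and 54. All 3 males on 25% lay below all 4 on 0%, and the gap between the groups was 0.55.

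The group means of btg1 were 9.26 ± 0.17 (SD, n = 5) in females on 0%, 8.62 ± 0.23 (SD, n = 5) in females on 25%, 9.28 ± 0.24 (SD, n = 4) in males on 0% and 8.29 ± 0.18 (SD, n = 3) in males on 25%. From low to high the order was males on 25%, females on 25%, females on 0% and males on 0%. The sexes overlapped within each diet, while the diets did not overlap within either sex. The model's diet difference, 25% minus 0%, was -0.64 ± 0.13 (SE) in females and -0.99 ± 0.15 in males on the log2 scale, or 64.2% and 50.5% of the signal on 0%. The estimate was larger in males by 0.35 ± 0.20, and whether the sexes differed in it was not tested, since the choice of the gene used these group means. Without male fish 11, 52 and 66 the male difference was -1.01 ± 0.19.

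**Figure D1:**
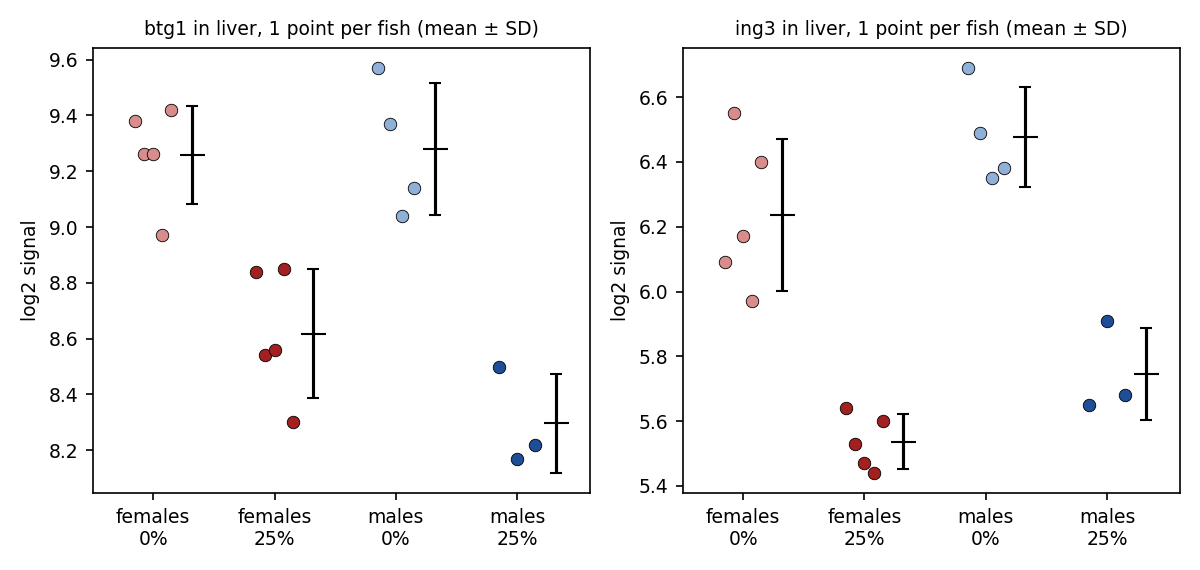
Log2 signal of btg1 (left) and ing3 (right) in each of the 17 fish, by sex and dietary carbohydrate, with bars for the mean ± SD of each group. For both genes every fish on 25% lies below every fish of the same sex on 0%; the y axes do not start at 0.

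The ing3 signal was also lower on 25% in both sexes. In females on 0% it was 6.09, 6.55, 6.17, 5.97 and 6.40 in fish 7, 8, 10, 25 and 27. In females on 25% it was 5.64, 5.53, 5.47, 5.44 and 5.60 in fish 3, 20, 24, 49 and 51. The females on 25% were close together, within 0.19 of each other, and all lay at least 0.33 below the females on 0%, which spread over 0.59. In males on 0% the signal was 6.69, 6.49, 6.35 and 6.38 in fish 11, 26, 30 and 66. In males on 25% it was 5.65, 5.91 and 5.68 in fish 52, 53 and 54. The male groups were separated by 0.44.

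The group means of ing3 were 6.24 ± 0.24 (SD, n = 5) in females on 0%, 5.54 ± 0.08 (SD, n = 5) in females on 25%, 6.48 ± 0.15 (SD, n = 4) in males on 0% and 5.75 ± 0.14 (SD, n = 3) in males on 25%. The order from low to high was females on 25%, males on 25%, females on 0% and males on 0%. Neighbouring groups in this order overlapped only at 0%; the highest female on 25% (5.64) and the lowest male on 25% (5.65) were nearly equal. The diet difference was -0.70 ± 0.11 (SE) in females and -0.73 ± 0.13 in males, or 61.5% and 60.4% of the signal on 0%, and these estimates differed by 0.03 ± 0.16. Without male fish 11, 52 and 66 the male difference was -0.63 ± 0.17.

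Among all 15502 probe sets, the female fish on 25% lay below all those on 0% for 1.34% and the male fish for 3.3%. Both held for 18 probe sets, 0.116% of those tested, and 11 of them carried 1 gene symbol. Btg1 and ing3 are in this set by the way they were chosen, so nothing is read from it about them. Ordered from the lowest diet difference averaged over sexes, btg1 stood at position 75 with -0.81 ± 0.10 and ing3 at position 120 with -0.71 ± 0.08. The median over all probe sets was -0.02.

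**Figure D2:**
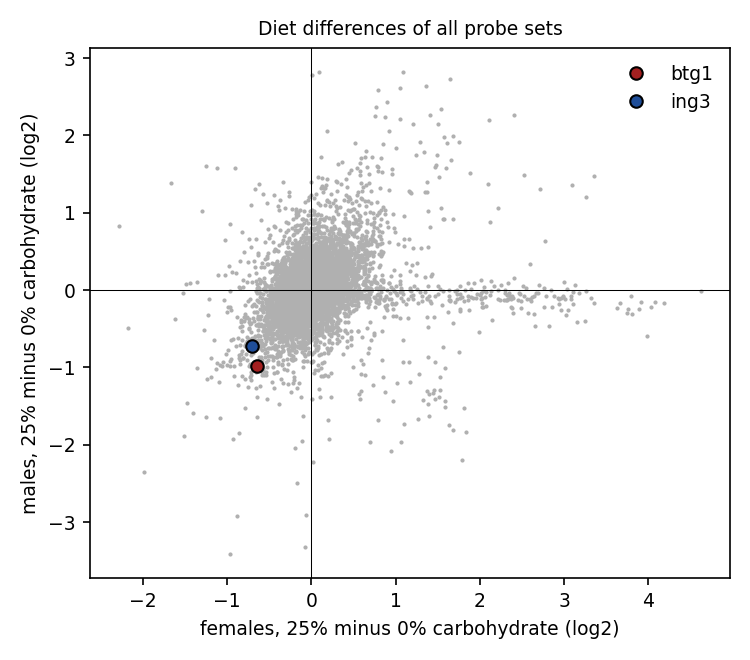
Diet difference (25% minus 0% carbohydrate, log2) in males against that in females, with 1 grey point for each of the 15502 probe sets. Btg1 (-0.64 in females, -0.99 in males) and ing3 (-0.70, -0.73) lie at the lower left edge of the main cloud, where both sexes were lower on carbohydrate.

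The other genes lower without overlap in both sexes, named here after their values were seen, were fbp1a, cirbpb, ints1, vbp1, wu:fi36a10, fbxl3b, rnf185, eif3g and smad7. Fbp1a, a fructose bisphosphatase of gluconeogenesis, had the lowest averaged difference together with btg1, at -0.81 each. The fbp1a mean in females on 25% was 3.71, near the array medians of 3.51 to 3.60, so the size for fbp1a is not exact. Cirbpb, a homologue of the cold-inducible RNA-binding protein CIRBP, followed ing3 at -0.68, and the remaining 7 lay between -0.55 and -0.33.

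Sex was the contrast that the choice of these genes did not use, and it asks whether either gene differs between female and male livers. Neither passed. Averaged over the diets, btg1 differed by 0.15 ± 0.10 (SE), female minus male, with a 95% interval of -0.06 to 0.36 and an adjusted p of 0.348 in limma over all probe sets (10 females, 7 males). Ing3 differed by -0.23 ± 0.08, with an interval of -0.40 to -0.05 and an adjusted p of 0.0809. By comparison 13.6% of all probe sets passed for sex. The ing3 result lay close to the threshold and depended on the scaling. With each array centred on its median it was -0.26 with an adjusted p of 0.046, and after quantile normalization it was -0.09 with an adjusted p of 0.567. It also passed without female fish 8 on 0% (-0.27, adjusted p = 0.0322). Without male fish 11, 52 and 66 the ing3 difference was -0.22 (adjusted p = 0.187). The btg1 difference was 0.27 after quantile normalization and 0.24 without male fish 11, 52 and 66, and passed in neither case (adjusted p = 0.129 and 0.225).

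The fish of one group were then used to ask whether btg1 and ing3 varied together apart from the group means. The deviations of the 17 fish from their group means gave a Pearson r of 0.31 (permutation test within groups, two-sided p = 0.239) and a Spearman rho of 0.28 (permutation p = 0.290). No joint variation was therefore shown. Fish 11 was high for both genes (0.29 for btg1 and 0.21 for ing3) and fish 25 low for both (-0.28 and -0.27), while fish 8, the highest for ing3 at 0.32, stood at 0.00 for btg1. Without fish 51 and 11, the farthest from the median for btg1, r was 0.28 (permutation p = 0.398) and rho 0.09 (permutation p = 0.779). It was the only pair tested, so no adjustment applied.

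**Figure D3:**
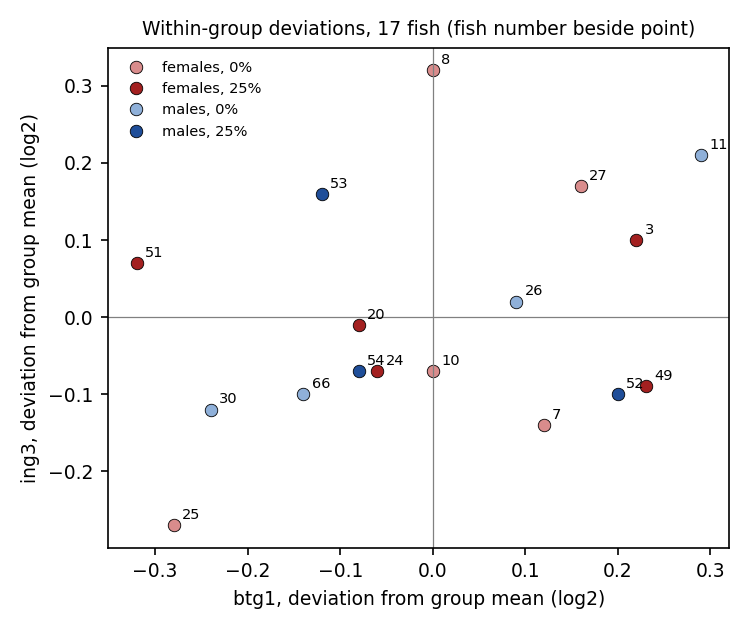
Deviation of ing3 from its group mean against that of btg1 (log2) for the 17 fish, coloured by group and marked with the fish number. The points are loosely spread, with r = 0.31: fish 11, 27 and 25 lie along the diagonal, and fish 8, 51, 52 and 49 lie off it.

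No measured relative of btg1 was called lower on carbohydrate. Of 7 listed BTG and TOB genes 6 had a probe set, and of the 5 besides btg1, 0 were called lower in either sex and 1 rose in females. For all probe sets 1.9% were called higher and 0.194% lower for diet in females, 0.0968% and 0.0194% in males, and 1.46% and 0.452% averaged over the sexes. A count of 0 lower among 5 genes is therefore close to the array as a whole. The gene that rose was btg4, a member known in vertebrates for clearing maternal messenger RNA in oocytes and eggs. In females it lay between 3.37 and 5.40 on 0% and between 6.02 and 7.11 on 25%, and in males between 3.02 and 3.56 on both diets. All females on 25% stood above all other fish, at a difference from females on 0% of 2.51 ± 0.32 (adjusted p = 0.000272), and the male difference was 0.05 ± 0.39 (adjusted p = 0.993). All 7 males and 2 of the females on 0% were below the array median for btg4, so the size is not exact.

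Btg4 and the ovary markers were both higher in females on 25% than in all other groups. The 14 measured ovary and oocyte markers averaged 3.47 to 4.90 in females on 0%, 5.64 to 6.55 in females on 25%, and 3.15 to 3.53 in males of both diets. In females on 25% 12 of these 14 were above the array median, against 5 to 11 in females on 0% and 2 to 6 in males. In males these markers overlapped between the diets (3.18 to 3.53 on 0% and 3.15 to 3.44 on 25%). The part of ovary RNA in the female values of btg4, btg1 and ing3 was not tested.

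The other BTG and TOB genes passed in neither sex. Btg2, a homologue that is induced by p53 in mammals, stood at 0.57 ± 0.43 in females and 0.41 ± 0.52 in males. Btg3 stood at 0.83 ± 0.29 and 0.51 ± 0.36, and the lowest adjusted p of these 4 values was 0.228. Tob1a stood at 0.11 ± 0.23 in females and 0.31 ± 0.28 in males, and tob1b at 0.76 ± 0.43 and -0.21 ± 0.51. The list's median without btg1 was 0.76 in females and 0.31 in males, against -0.03 and -0.01 over all probe sets, and the male median was 0.69 without male fish 11, 52 and 66.

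No measured relative of ing3 was called lower on carbohydrate either. Of 6 listed ING genes 4 had a probe set. Of the 3 besides ing3, 0 were called lower in either sex and 2 rose in females. Over all probe sets 0.194% were called lower and 1.9% higher for diet in females, and 0.0194% and 0.0968% in males. A count of 0 lower among 3 genes is therefore close to the array as a whole. Ing5b, whose mammalian homologue works in other histone acetylation complexes, lay between 4.06 and 4.34 in females on 0% and between 4.25 and 5.30 in females on 25%, with overlapping groups. It rose by 0.71 ± 0.16 (adjusted p = 0.0282), and leaving out single fish ended this call in 6 of 17 cases (adjusted p up to 0.0864). Ing2, whose mammalian homologue belongs to a histone deacetylase complex, rose in females by 0.54 ± 0.11 (adjusted p = 0.0101), from below the array median in 4 of 5 fish on 0%. Their male differences were 0.02 ± 0.19 and 0.07 ± 0.13 (adjusted p = 0.997 and 0.952). Ing4 stood at -0.16 ± 0.16 in females and -0.10 ± 0.20 in males (adjusted p = 0.734 and 0.956). The ovary markers were also higher in females on 25%, as were the group means of ing2 and ing5b. The part of ovary RNA in these 2 genes was not tested.

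**Figure D4:**
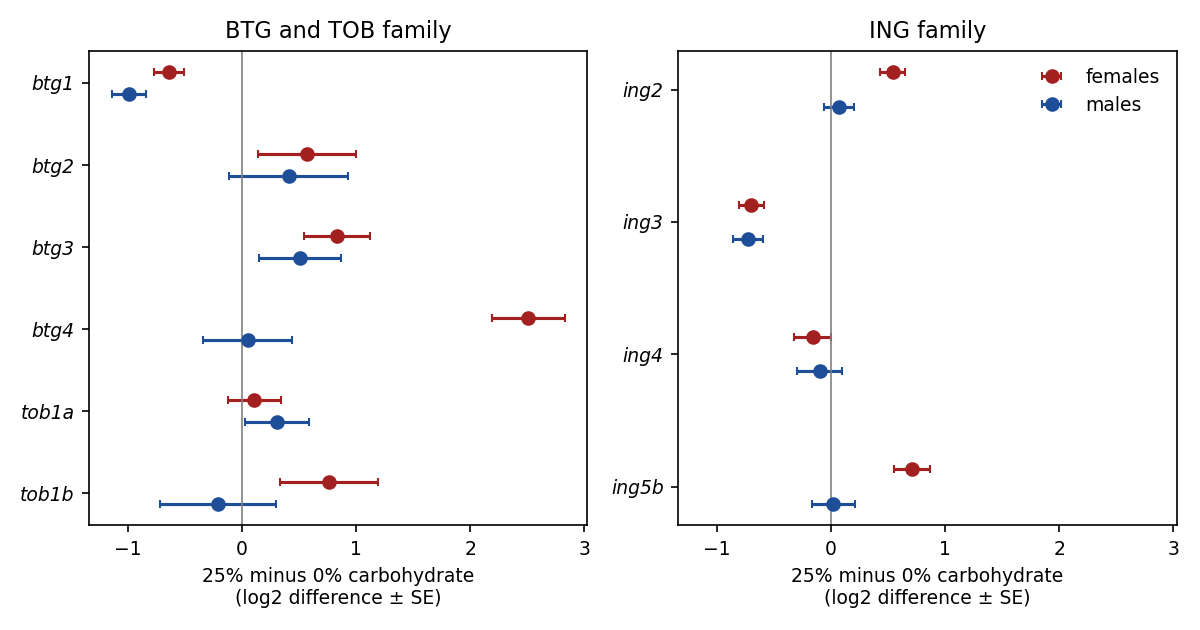
Diet difference (25% minus 0% carbohydrate, log2 difference ± SE of the model) for the measured BTG and TOB genes (left) and ING genes (right), in females (red, 5 and 5 fish) and males (blue, 4 and 3 fish). Btg1 and ing3 lie below 0 in both sexes, while btg4, ing2 and ing5b lie above 0 in females and near 0 in males.

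The complexes that these proteins join showed no call for diet in limma. Of 22 genes of the CCR4-NOT and PAN deadenylases with their poly(A)-binding proteins and prmt1, 15 were measured. None of the 15 passed for diet in females or in males, and 2 and 3 had an unadjusted p under 0.05. Over all probe sets 12.8% in females and 8.18% in males had such a p, and few passed the adjusted test, so a count of 0 in a list of this size is close to the array as a whole. The list's median diet difference was -0.00 in females and 0.04 in males. Cnot8, a deadenylase subunit that binds BTG1 in mammals, stood at 0.18 ± 0.11 in females and -0.11 ± 0.13 in males, and prmt1 at 0.31 ± 0.24 and 0.32 ± 0.29. Cnot7 was below the array median on all 17 arrays. Of 27 genes of the NuA4/TIP60 complex 13 were measured. None passed for diet in either sex. In females 6, of which 5 were higher on 25%, and in males 3 had an unadjusted p under 0.05. These counts lie above the shares of 12.8% and 8.18% over all probe sets. Of the genes higher in females, trrap, ruvbl1, actl6a and mrgbp were below the array median on 4, 4, 7 and 15 of 17 arrays. Their sizes are therefore not exact. The ovary markers were also higher in females on 25%, and the part of ovary RNA in this list was not tested. Kat5a, the acetyltransferase of the complex, stood at -0.47 ± 0.13 in females (adjusted p = 0.0989) and -0.15 ± 0.16 in males (adjusted p = 0.889). Morf4l1, a chromodomain subunit, stood at 0.03 ± 0.13 in females and -0.50 ± 0.16 in males (adjusted p = 0.346 in males). Ruvbl1 and h2az2b were higher in females, at 0.50 ± 0.16 and 0.56 ± 0.25 (adjusted p = 0.162 and 0.361). In males they stood at 0.11 ± 0.19 and -0.01 ± 0.30. Of the 13 estimates in this list, 3 were below 0 in females and 7 in males.

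Between the sexes the deadenylation list had 3 of 15 genes higher and 1 lower in females, against 8.02% and 5.57% over all probe sets. Pabpc1a, a poly(A)-binding protein, rose by 0.58 ± 0.07 (adjusted p = 6.12e-05), cnot11 by 0.26 ± 0.07 and cnot3b by 0.24 ± 0.06, while cnot4b, a ubiquitin ligase that associates with the complex, stood at -0.42 ± 0.11 (adjusted p = 0.0227). Without male fish 11, 52 and 66 pabpc1a and cnot4b still passed and cnot11 and cnot3b did not (adjusted p = 0.0704 and 0.162). In the NuA4/TIP60 list none of 13 passed for sex in limma, and 2 had an unadjusted p under 0.05, as 29.1% of all probe sets did. Btg4 was higher in females by 2.01 ± 0.25 (adjusted p = 0.000116), and by 1.87 without the 3 male fish (adjusted p = 0.0037). Ing5b was higher by 0.41 ± 0.13 (adjusted p = 0.045), a call lost in 16 of the 17 fits without 1 fish (highest adjusted p 0.117), without the 3 male fish (0.138) and with arrays centred on their medians (0.0559).

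BTG1 is known in mammals as a target of the FoxO transcription factors, which insulin holds out of the nucleus, and BTG and ING genes have been tied to p53 and to early responses to stimulation. Of 14 measured genes among 31 FoxO factors, insulin receptors and their targets, none passed for diet in females or in males in limma. An unadjusted p under 0.05 was found for 3 of them in females (2 higher, 1 lower) and 4 in males (2 higher, 2 lower). Both counts lie above the shares of 12.8% and 8.18% over all probe sets. With male fish 11, 52 and 66 left out of the fit, 1 of the 14 genes was called lower in females, the insulin receptor gene insra. With all fish its female difference was -0.35 ± 0.15 (adjusted p = 0.323 in limma). Leaving out males does not change the female means, only the estimated spread and the adjustment. The median diet difference was -0.05 in females and 0.06 in males, and 0.49 in males without these fish. Igfbp1a, an insulin-repressed binding protein of insulin-like growth factors, stood at 0.04 ± 0.54 and 0.00 ± 0.65, and igfbp1b at -0.72 ± 0.69 and -0.95 ± 0.83. Ccng2, a cyclin of resting cells and a FoxO target in mammals, stood at -0.25 ± 0.21 in females and -0.73 ± 0.26 in males (adjusted p = 0.679 and 0.434). Other genes of the list went the other way. Pck1 stood at 1.36 ± 0.91 in females and 2.63 ± 1.09 in males, and g6pc1a.2 at 1.42 ± 0.46 and 0.82 ± 0.55. Of the 14 estimates, 9 were below 0 in females and 6 in males. Of 12 measured p53 genes none passed for diet in either sex, with 1 in females and 0 in males at an unadjusted p under 0.05. Nor did any of 23 measured immediate early genes pass, with 1 and 0. These counts lie below the shares of 12.8% and 8.18% over all probe sets.

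More members of those lists were called for sex than for diet, as was the case over all probe sets. There 13.6% were called for sex. For diet 1.9% were called higher and 0.194% lower in females, and 0.0968% and 0.0194% in males. Of the 23 immediate early genes 11 were lower and 1 higher in females, against 5.57% lower and 8.02% higher over all probe sets, and their median was -0.51 against 0.01. Ier5 stood at -1.23 ± 0.21 (adjusted p = 0.00103), klf2b at -0.51 ± 0.11 (0.00676) and zfp36l1b at -1.23 ± 0.27 (0.00686), while zfp36l1a rose by 1.50 ± 0.20 (0.000181). Without male fish 11, 52 and 66, 5 were lower and 1 was higher, and the median was -0.34. With 2 males left on each diet, calls for sex over all probe sets also fell, from 13.6% to 9.37%. In the p53 list 2 of 12 genes were called for sex and in the FoxO list 1 of 14, all lower in females. Over all probe sets 5.57% were called lower and 13.6% in either direction. Nothing is read from counts this small. Of the p53 genes baxa, a promoter of apoptosis, stood at -0.67 ± 0.13 (adjusted p = 0.00396) and perp at -0.46 ± 0.13 (adjusted p = 0.0364), and of the FoxO list pck1 stood at -2.33 ± 0.71 (adjusted p = 0.0415), a size that is not exact because pck1 was below the array median on 8 of 17 arrays. These 3 did not pass without the 3 male fish (adjusted p = 0.0571, 0.298 and 0.16). In that fit gadd45ab of the p53 list and foxo3b and insra of the FoxO list were called lower in females instead. Gadd45ab was below the array median on 15 of 17 arrays. In the 17 fits that each left out 1 fish, perp passed in 7 and pck1 in 5. Btg1 and ing3, with sex differences of 0.15 and -0.23, did not pass in this contrast.

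The genes whose signal followed btg1 and ing3 most closely over the 17 arrays were taken from 6087 brighter probe sets with 1 symbol. The likeness is Pearson's r, it includes the differences between the groups, and the points share the arrays, so it is given as a description. Genes picked by likeness to btg1 or ing3 tend to be lower on carbohydrate through the pick itself. Their diet differences are therefore also only a description. For btg1 the closest were ctdsp2 (r = 0.865), a phosphatase of the RNA polymerase tail, her6 (0.830), a hairy-related repressor downstream of Notch, spint2 (0.800), a serine protease inhibitor, znf395b (0.800) and sf3b1 (0.787), a splicing factor subunit. Spint2 had the widest diet difference of these, at -1.40 ± 0.44 in females and -1.58 ± 0.53 in males. Her6 and sf3b1 were lower by less, with -0.36 ± 0.11 and -0.39 ± 0.12 in females and -0.35 ± 0.14 and -0.40 ± 0.14 in males. After the group means were removed, r with btg1 lay between 0.41 (sf3b1) and 0.64 (her6). It was 0.31 for ing3, which was not picked for a high r over these arrays as the others were. The values are therefore not on equal terms, and nothing is read from their order.

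For ing3 the closest were anxa4 (r = 0.918), a calcium-dependent membrane-binding annexin, ryk (0.908), a Wnt co-receptor, cirbpb (0.859), cry1a (0.857), a cryptochrome of the circadian clock, and fbp1a (0.854). Anxa4 differed by -0.96 ± 0.24 in females and -0.91 ± 0.28 in males, and cry1a by -0.33 ± 0.09 and -0.34 ± 0.11. After the group means were removed, r with ing3 was 0.75 for anxa4, 0.67 for ryk and 0.23 for fbp1a. No gene was among the 5 closest to both members. Ing3 itself would have stood at place 5 for btg1, and btg1 at place 27 for ing3. Without male fish 11, 52 and 66 these 10 values of r lay between 0.763 (spint2) and 0.904 (anxa4).

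**Figure D5:**
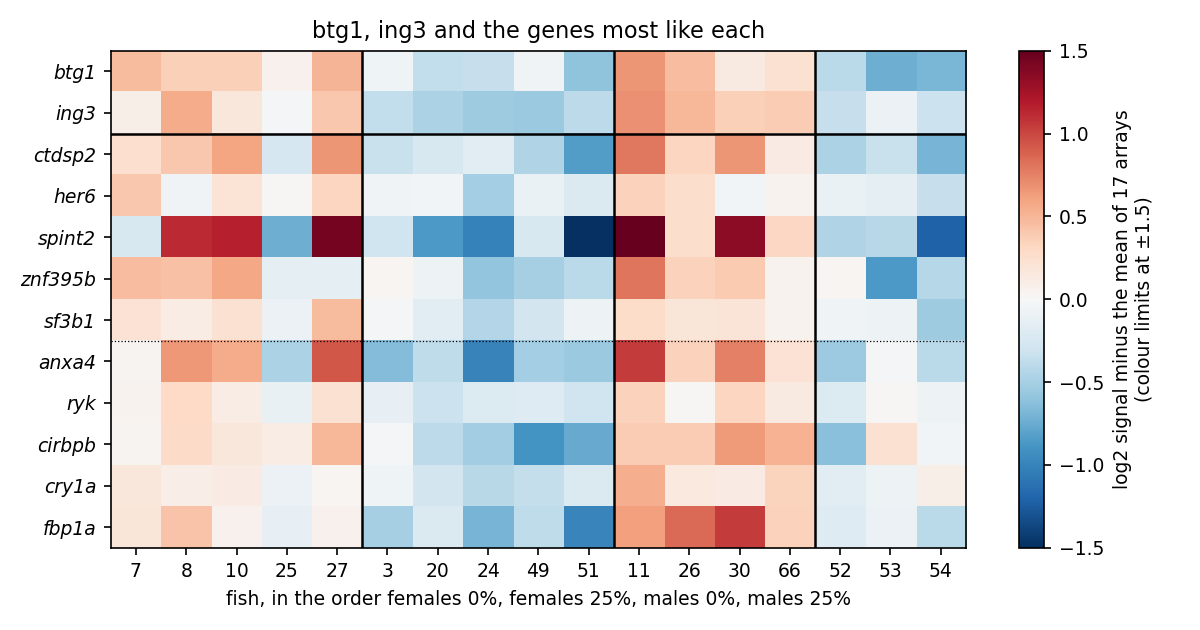
Log2 signal minus the mean of the 17 arrays for btg1 and ing3 (above the solid line), the 5 genes most like btg1 and, below the dotted line, the 5 most like ing3, with fish ordered by group. Red is above and blue below the gene's mean, and most cells are red on 0% and blue on 25%; spint2 exceeds the colour limits in some fish.

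The genes beside btg1 and ing3 on the chromosome were set against them. Among the 3 nearest protein-coding genes on each side, 4 of 6 around btg1 and 2 of 6 around ing3 had a probe set with 1 symbol. None of these 6 was called lower for diet. Over all probe sets 0.194% were called lower and 1.9% higher in females, and 0.0194% and 0.0968% in males. A count of 0 lower among 6 genes is therefore close to the array as a whole. Caprin2, next to btg1, rose in females by 0.93 ± 0.15 (adjusted p = 0.00134) and stood at -0.04 ± 0.18 in males, with a signal below the array median on 8 of 17 arrays. Dcn, the gene of the matrix proteoglycan decorin, stood at -0.42 ± 0.26 and -0.16 ± 0.31, and dennd5b at 0.06 ± 0.27 and 0.12 ± 0.33. The other 3 (wu:fc23c09, flncb and cped1) were below the array median on all 17 arrays.

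BTG1 is abundant in mammalian lymphocytes, so leukocyte markers were set beside the btg1 values. The 18 measured markers averaged 4.71 to 5.13 in females on 0%, 4.21 to 5.65 in females on 25%, 4.50 to 6.05 in males on 0% and 4.38 to 5.58 in males on 25%. The diets overlapped in both sexes, but in females only through fish 49. The other females on 25% lay at 4.21 to 4.45, below every female on 0%. The medians on 0% and 25% were 4.82 and 4.42 in females and 5.04 and 4.83 in males. Fish 49 on 25%, with the highest leukocyte mean of the females (5.65), had a btg1 signal of 8.85, the highest of the females on 25%, and fish 11 had both the highest leukocyte mean of all fish (6.05) and the highest btg1 signal (9.57). In males on 25%, fish 52 had both the highest leukocyte mean (5.58) and the highest btg1 signal (8.50). In females on 25%, fish 51 had the lowest btg1 signal (8.30) and a leukocyte mean of 4.22, close to their lowest (4.21). In every group but females on 0%, the fish with the highest leukocyte mean also had the highest btg1 signal. Among the males these were fish 11 and 52, which had high intestinal markers. Of the males without such markers, fish 30 had a higher leukocyte mean than fish 26 (5.01 against 4.50) but a lower btg1 signal (9.04 against 9.37). The same held for fish 53 against fish 54 (4.83 against 4.38, with btg1 at 8.17 against 8.22). In females on 25%, fish 49 was nearly equal to fish 3 for btg1 (8.85 and 8.84). Whether btg1 and these markers varied together within groups was not tested. Fish 25 and 26 ran the opposite way. Fish 25 had the highest leukocyte mean of the females on 0% (5.13) with their lowest btg1 signal (8.97), and fish 26 the lowest mean of the males on 0% (4.50) with a btg1 signal of 9.37. The part of leukocyte RNA in the btg1 signal was not tested, and in these whole-liver samples fewer cells of a type and less RNA per cell cannot be told apart. Exocrine pancreas markers were high in every sample, with group ranges that overlapped between the diets (6.87 to 9.55 in females on 0% and 7.95 to 11.45 on 25%, 7.77 to 12.24 in males on 0% and 6.46 to 10.37 on 25%). Red cell markers averaged 4.51 to 6.10 and 4.33 to 5.08 in females and 4.84 to 5.38 and 5.23 to 6.11 in males, on 0% and 25%.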

How the data were processed

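The authors' deposited table holds 1 normalized log2 signal per probe set and array; MAS5, RMA, GCRMA and PLIER are listed in the submitters' processing notes, but which of them produced the table is not stated, and background correction, scaling and detection calls are not given in the sources used here. Such steps set the size of differences near background. Of 15617 probe sets 115 controls were left out. Of the rest 10795 had 1 symbol, 135 several and 4572 none, and 10711 were matched by Entrez ID. The 4 group means of the 17 arrays were fitted with limma 3.58.1 (lmFit, eBayes; R 4.3.3), with Benjamini-Hochberg adjustment over 15502 probe sets and a threshold of 0.05, two-sided. The fit was tested on simulated data. A list gene is its brightest probe set, and counts leave out btg1 and ing3. Correlations of deviations used 100000 permutations within groups.

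The members, lists, tests and alternatives were chosen with earlier results of these data known. Genes named are the members, their families, the 5 most alike of each by r over 17 arrays among probe sets brighter than the median one, up to 3 called genes per list, direction and contrast with the lowest adjusted p, and others as said. Further list genes were named for their role. Lists not called are given by count and median. Nothing in the labels says that fish were pooled; the number of arrays limits the precision. Alternatives were quantile normalization, median centring, brighter probe sets, trend and robust eBayes, array weights, leaving out male fish 11, 52 and 66, and leaving out each fish. Sequences were not analysed here.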

Additional observations from a re-analysis of the deposited data

Results flagged for a closer look

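Neither btg1 nor ing3 had a fish that stood apart among the females on either diet or the males on 0%; the 3 males on 25% are too few for this check. Of the marker means set beside them, that of intestinal epithelium in females on 0% had fish 27 apart at 4.45 from the others at 4.24 to 4.28, a gap of 0.803 of the group's range. The leukocyte mean in females on 25% had fish 49 apart at 5.65 from the others at 4.21 to 4.45, a gap of 0.836 of the range. Chance alone sets about 1 in 20 such groups apart. In fish 27 and 49 btg1 was the highest of the group (9.42 and 8.85), while ing3 was 6.40 and 5.44, the latter the lowest of its group.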

How the results depend on the processing

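The diet differences of btg1 and ing3 in females, in males and averaged kept their sign and moved by less than the spread between fish (residual SD 0.21 and 0.17) under the 6 other settings and in the 17 fits that each left out 1 fish. In the latter, btg1 ranged from -0.71 to -0.56 in females and from -1.09 to -0.89 in males, and ing3 from -0.77 to -0.62 and from -0.81 to -0.66. The sex difference of ing3 passed with arrays centred on their medians (-0.26) and ranged from -0.27 to -0.19 in the fits without 1 fish, and that of btg1 from 0.11 to 0.20. The cause was not tested. Of 85 list genes 21 were called for sex and 12 without male fish 11, 52 and 66 (8 to 22 without 1 fish). For diet averaged over sexes 1 was called (btg4), 0 without the 3 males (0 to 4 without 1 fish). Over all probe sets 2106 were called for sex, 1453 to 2428 under the other settings. The lowest, 1453 (9.37%, against 13.6% in the main fit), came from the fit without the 3 males. The 17 calls tested this way were those of the named list genes, where btg4 and ing5b entered for more than 1 contrast. These calls kept their direction under all settings, and 62 of 391 refits did not pass. Within groups r was 0.26 without the 3 males (permutation p = 0.397). Averaging probe sets within a gene was not run, as each member has 1. No paired analysis was possible because each fish has a number of its own.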
